A study of Mus musculus with 2 samples.

Results

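The proteasome genes of mouse stomach leukocytes were described across 17 cell gates and between mice given interleukin 27 (IL-27) or vehicle. The members were all genes whose symbol begins with Psma, Psmb, Psmc, Psmd or Psme followed by a digit, leaving out pseudogene and opposite-strand names. They came to 45 of the 31053 genes in the count tables, and each was found by its identifier in the GENCODE M21 annotation of GRCm38, spread over 16 chromosomes. The rule used names only and no measured value.

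The mice were TxA23, a strain that carries a T cell receptor transgene against a stomach parietal cell antigen and develops autoimmune gastritis. Animals of both groups therefore carried the transgene, and no mice without it entered the comparison. At 3 months of age the mice received subcutaneous osmotic pumps. In the IL-27 group (3 females) the pump held 800 ng of recombinant IL-27, a covalently joined p28 and EBI3 protein, in 200 uL of phosphate-buffered saline (4 ug/mL). In the PBS group (1 male and 1 female) it held the saline alone. After 4 weeks, live CD45+ cells that excluded propidium iodide were sorted from flushed gastric mucosa and captured with a 10x Genomics 5' kit, which counts unique molecular identifiers (UMIs). Each group is 1 deposited library, so a difference between them has no replicate check and no test was made. The barcodes carry well numbers, 3 wells for IL-27 and 2 for PBS, and values are given by well. The labels do not say that a well is a mouse. Sex differed between the groups as well as treatment, and their parts in a difference cannot be told apart.

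The proteasome is the large protease that degrades ubiquitin-tagged proteins. Its 20S core is a barrel of stacked alpha and beta rings, and the 19S cap, with a ring of ATPases and a set of non-ATPase subunits, binds, unfolds and feeds in the substrate. In leukocytes and under interferon, the catalytic beta subunits Psmb5, Psmb6 and Psmb7 are replaced in newly built cores by Psmb8 (beta5i, also called LMP7), Psmb9 (beta1i, LMP2) and Psmb10 (beta2i, MECL-1), which gives the immunoproteasome. The PA28 activator, made of Psme1 and Psme2, opens the core in place of the 19S cap, and peptides cut by these particles feed MHC class I through the Tap1 and Tap2 transporter. IL-27 is a cytokine of the IL-12 family that acts through a receptor of Il27ra and gp130.

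By role, the members were the 7 alpha ring genes (Psma1 to Psma7), 4 structural beta genes (Psmb1 to Psmb4), the 3 constitutive catalytic genes, the 3 inducible catalytic genes, 6 ATPases (Psmc1 to Psmc6), 11 non-ATPase genes, the assembly chaperones Psmd5, Psmd9 and Psmd10, the activators Psme1, Psme2 and Psme3, and Psme4, which encodes PA200. The other 4 were Psma8, a testis alpha subunit, Psmb11, the thymic beta5t, Psme2b, a near copy of Psme2 whose reads may be shared with it, and Psmc3ip, which matches by name but encodes a partner of meiotic recombinases. In at least 1 gate 43 members reached 10 CPM (UMIs of the gene per 1000000 UMIs of the gate). Psmb11 had 0 UMIs in all cells, and Psma8 had 6 UMIs with IL-27 and 8 with PBS.

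The inducible genes lie in pairs: Psmb8 (chr17:34197721-34201454, plus strand) and Psmb9 (chr17:34181987-34187764, minus strand) lie in the MHC, and Psme1 (chr14:55578123-55581529, plus strand) and Psme2 (chr14:55587441-55591113, minus strand) face each other on chromosome 14. Psmb10 is on chromosome 8 (chr8:105935735-105938444, minus strand). Promoter windows from RefSeq (GRCm38.p6, 250 bases before to 50 bases after the annotated start, start as position 1) were found for 38 of the 45 members. They are shown for Psmb8 and Psme1, the 2 of the 5 inducible catalytic and PA28 genes whose windows held a match, and for 2 constitutive catalytic genes with a match, Psmb5 and Psmb6. Capitals mark matches to the motifs searched on both strands.
Psmb8: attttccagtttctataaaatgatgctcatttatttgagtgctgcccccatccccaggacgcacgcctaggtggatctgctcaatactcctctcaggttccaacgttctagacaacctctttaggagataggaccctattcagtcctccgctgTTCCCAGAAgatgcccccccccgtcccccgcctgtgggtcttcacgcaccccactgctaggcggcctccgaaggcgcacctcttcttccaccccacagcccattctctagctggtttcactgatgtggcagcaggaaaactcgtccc
Psme1: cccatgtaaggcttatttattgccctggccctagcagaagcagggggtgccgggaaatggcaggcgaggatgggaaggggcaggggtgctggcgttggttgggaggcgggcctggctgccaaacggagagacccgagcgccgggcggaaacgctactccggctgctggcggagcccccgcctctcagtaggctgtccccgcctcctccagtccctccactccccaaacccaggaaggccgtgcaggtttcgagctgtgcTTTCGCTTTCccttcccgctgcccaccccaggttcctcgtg
Psmb5: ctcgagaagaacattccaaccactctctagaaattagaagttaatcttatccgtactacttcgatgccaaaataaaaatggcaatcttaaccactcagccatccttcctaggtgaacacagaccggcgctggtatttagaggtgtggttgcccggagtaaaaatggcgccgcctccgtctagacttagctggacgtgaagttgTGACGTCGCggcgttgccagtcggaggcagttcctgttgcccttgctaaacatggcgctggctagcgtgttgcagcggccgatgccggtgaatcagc
Psmb6: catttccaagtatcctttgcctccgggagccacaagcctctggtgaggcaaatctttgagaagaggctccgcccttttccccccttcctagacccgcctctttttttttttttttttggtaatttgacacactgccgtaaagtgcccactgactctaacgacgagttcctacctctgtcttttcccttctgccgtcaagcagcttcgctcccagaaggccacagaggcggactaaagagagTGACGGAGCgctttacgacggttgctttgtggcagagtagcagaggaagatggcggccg
The windows are chr17:34197945-34198244 (plus strand) for Psmb8, chr14:55578244-55578543 (plus) for Psme1, chr14:54617946-54618245 (minus) for Psmb5 and chr11:70525107-70525406 (plus) for Psmb6. By the GENCODE bounds given above, the windows of Psmb8, Psme1 and Psmb9 lie wholly inside their genes, downstream of the GENCODE start. Motif positions are counted from the RefSeq start. The Psmb8 capitals, TTCCCAGAA from position -97, match the STAT pattern TTCNNNGAA, which 9.55% of 27025 genes hold in their windows and 2 of the 38 members (Psmb8 and Psmd2). The Psme1 capitals, TTTCGCTTTC from position 10, match the interferon response element core (GAAA, any 2 bases and GAAA) on the other strand, found for 3.99% of genes and 4 of the 38 members (Psme1, Psmb3, Psmd4 and Psmd9). Psmb5 (TGACGTCGC from position -47) and Psmb6 (TGACGGAGC from position -9) match the antioxidant response element core TGACNNNGC, held by 13.99% of genes and 6 of the 38 members. The NF-kB consensus was found for 9.55% of genes and 6 of the 38 members, none of them inducible or PA28 genes. The windows of Psmb9, Psmb10 and Psme2 held no match to any of these motifs, and that of Psmb9 overlapped that of Tap1, on the opposite strand, by 275 bases. A match is a run of letters and not a shown site.

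After cells with fewer than 200 genes or over 10% mitochondrial UMIs were left out, 20579 of 20897 IL-27 barcodes and 11793 of 12276 PBS barcodes remained, with 79675875 and 42942228 UMIs and a median of 3079 and 2958 UMIs per cell. Gates were set on raw marker UMIs and took 75.1% and 81.7% of cells. All 84 check markers that the gates did not use were above the median of the 17 gates in their own gate. B cells were the largest gate (10849 IL-27 and 7656 PBS cells), followed by Foxp3-negative CD4 T cells (1850 and 591, called CD4 below) and CD8 T cells (1554 and 517). There were 6 IL-27 and 82 PBS mast cells, 81 of the latter in PBS well 2. Between 46 and 71 barcode sequences were shared by any 2 wells. Levels in CPM and percent of UMIs of a gate are the mean of its libraries (PBS only for mast cells), and 95% intervals cover counting error only. A gene counted as measured in a contrast with at least 10 CPM on the higher side and 20 UMIs over both sides, and as higher or lower from a 1.5-fold difference.

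Proteasome genes took 0.526% of all IL-27 UMIs and 0.525% of all PBS UMIs, and between 0.515% and 0.541% in the 5 wells. Across gates the sum ranged from 0.233% of UMIs in neutrophils to 1.04% in mature dendritic cells. Between them lay plasma cells at 0.364%, mast cells at 0.403%, B cells at 0.467%, macrophages and monocytes at 0.493%, CD8 T cells at 0.539%, NK cells at 0.591%, CD4 T cells at 0.608%, cycling T cells at 0.618%, plasmacytoid dendritic cells at 0.636%, regulatory T cells at 0.638% and conventional dendritic cells at 0.690%. Immunoglobulin, T cell receptor, ribosomal protein, mitochondrial and haemoglobin genes take unequal shares of these cells' RNA. When CPM was taken over the remaining genes, plasma cells, which lost 54.0% and 56.2% of their UMIs, moved from below B cells to above them (0.811% and 0.696%), while neutrophils remained at the low end (0.247%) and mature dendritic cells at the high end (1.29%).

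**Figure D1:**
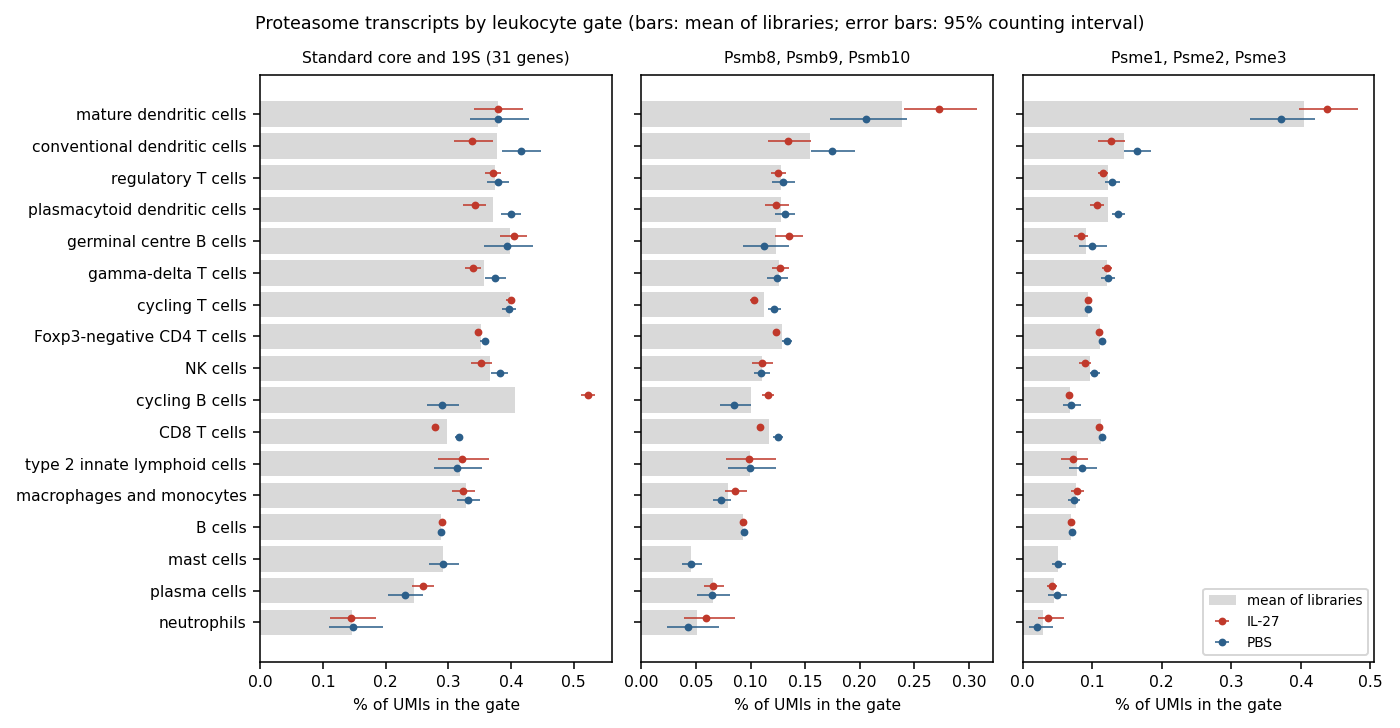
Share of UMIs (percent, horizontal) taken by the 31 standard core and 19S genes, the 3 inducible catalytic genes and the 3 PA28-type genes in each gate; bars are the mean of the libraries, points the IL-27 and PBS libraries with 95% counting intervals (IL-27 mast cells, 6 cells, are not drawn). Mature dendritic cells stand out in the inducible and PA28 panels (0.239% and 0.405%) but not in the standard panel (0.379%).

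The standard particle and the inducible genes did not rank the gates alike. The 31 standard genes (alpha ring, structural and constitutive beta, ATPases and non-ATPase subunits) took 0.289% of UMIs in B cells, 0.298% in CD8, 0.353% in CD4 and 0.398% in cycling T cells. In mature dendritic cells they took 0.379%, within the range of the T cell gates, while Psmb8, Psmb9 and Psmb10 together took 0.239% against 0.0935% in B cells and PA28 took 0.405% against 0.0702%. In cycling B cells the standard genes took 0.523% of IL-27 UMIs (0.511-0.535%) and 0.291% of PBS UMIs (0.266-0.317%), and 77 of their 104 IL-27 cells came from well 3.

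Among 37 members with at least 50 CPM in a gate, over the 9 gates with 50 or more cells in each library, the median ratio of highest to lowest gate was 1.77. Psme2 varied most, from 232 CPM in B cells to 599.6 CPM in regulatory T cells (ratio 2.59). The alpha ring gene Psma4 followed, from 67.8 CPM in B cells to 152 CPM in cycling T cells (2.25), then Psma7, from 189.7 CPM in B cells to 423 CPM in macrophages and monocytes (2.23). Psmb7 (2.17) and the non-ATPase gene Psmd12 (2.16) came next, with 44 and 24 UMIs in their lowest gates. At the other end, the ATPase gene Psmc6 differed by a ratio of 1.35, the lid gene Psmd11 by 1.42, Psma3 by 1.43 and Psmb6 by 1.49, with Psmd6 next. Over these 9 gates the inducible catalytic genes were not the most variable. Psmb10, the highest of them, had a ratio of 2.11, from 107 CPM in cycling T cells to 227 CPM in NK cells. The ranking leaves out the smaller gates, among them mature dendritic and mast cells. In mature dendritic cells Psmb9 stood at 774 CPM and Psmb10 at 325 CPM, so it does not describe their spread over all gates.

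The balance of inducible and constitutive catalytic genes was read as the inducible gene's share of the UMIs of its pair, pooled over both libraries. The transcripts of a pair may be captured unequally, so only the order of gates is described and not the make-up of the particle. For Psmb8 with Psmb5 the share was 83.4% in B cells (95% exact binomial interval 83.1-83.8%), 84.4% in CD4 (83.7-85.2%) and 84.3% in CD8 T cells (83.6-85.1%), which lie close together. Mature dendritic cells were highest at 93.1% (89.1-96.0%), and mast cells (72.0%, 62.1-80.5%) and macrophages and monocytes (71.7%, 67.4-75.7%) were lowest.

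For Psmb9 with Psmb6 the gates spread more widely. The share was 90.4% in mature dendritic cells (84.4-94.7%), 77.3% in conventional dendritic cells (71.5-82.4%), 68.6% in CD8 (67.1-69.9%), 67.2% in CD4 (65.8-68.5%), 62.0% in B cells (61.3-62.6%), 56.3% in macrophages and monocytes (50.2-62.4%) and 37.5% in mast cells (24.0-52.6%, 48 UMIs). The CD8 and CD4 intervals overlap, and those of mature and conventional dendritic cells do not. By well, however, these 2 dendritic gates overlapped. Conventional dendritic cells stood at 94.4%, 81.4% and 58.1% with IL-27 and at 61.8% and 82.8% with PBS. Mature dendritic cells stood at 95.5%, 92.9% and 91.3% with IL-27 and at 100% and 84.8% with PBS. Psmb10 with Psmb7 gave another order, with 83.4% in CD8 (81.8-84.9%), 80.6% in B cells (79.8-81.4%), 76.5% in CD4 (74.5-78.4%) and 61.6% in cycling T cells (58.1-65.1%). Conventional dendritic cells, second among dendritic gates for Psmb9, had a Psmb10 share of 47.7% (32.5-63.3%, 44 UMIs), while mature dendritic cells had 86.2% (75.3-93.5%, 65 UMIs; 83.0% with IL-27 and 94.4% with PBS).

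**Figure D2:**
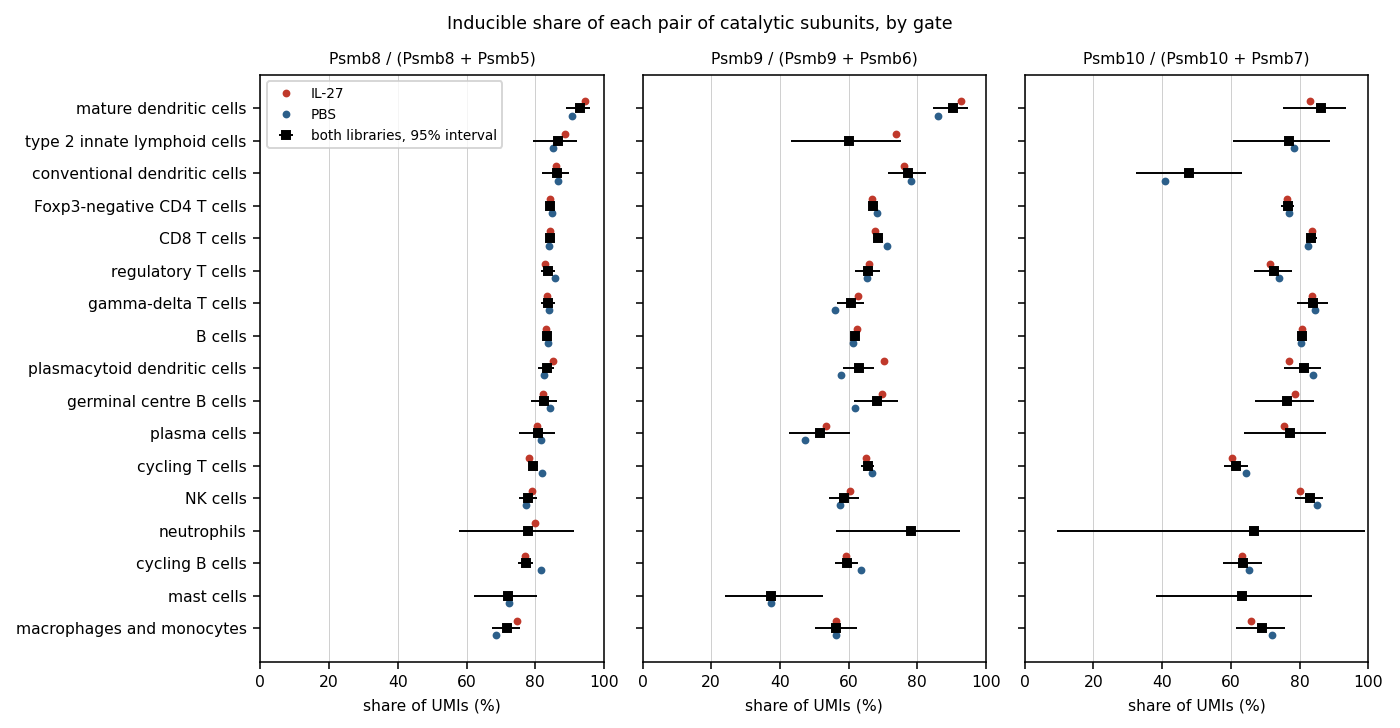
Share of UMIs (percent, horizontal) of the inducible gene in each catalytic pair by gate; black squares pool both libraries with 95% exact binomial intervals, and coloured points are libraries with at least 20 UMIs of the pair. Mature dendritic cells lie at 93.1%, 90.4% and 86.2%, and the Psmb9 panel runs down to 37.5% in mast cells.

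Mature dendritic cells, gated on Fscn1, Ccl22 and Ccr7, were 16 IL-27 and 8 PBS cells, 7 of the latter in PBS well 2. PA28 and the inducible catalytic genes were the high members. Psme2 stood at 1719, 1933 and 2525 CPM in IL-27 wells 1 to 3 and at 1833 and 1915 CPM in PBS wells 1 and 2, where PBS well 1 is a single cell. Psme1 stood at 2381, 2113 and 2313 CPM in the IL-27 wells and at 1604 and 1773 CPM in the PBS wells. Every well was above the B cell means of 232 CPM for Psme2 and 413 CPM for Psme1, by 8.58-fold and 4.90-fold on the gate means (folds between gates are on CPM with 1 CPM added). Psmb9 stood at 556, 1169 and 1117 CPM in the IL-27 wells and 917 and 617 CPM in the PBS wells, 3.44-fold over B cells. Psmb8 stood at 1085, 1798 and 1515 CPM and at 1604 and 1139 CPM, 2.26-fold over B cells. Both were above the B cell level in all wells too.

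Psmb10 was 2.31-fold above B cells (325 and 140.1 CPM), the alpha ring gene Psma5 3.19-fold (320 and 99.7 CPM, 54 UMIs) and the chaperone gene Psmd10 3.02-fold on 15 UMIs. The constitutive Psmb5 (100.2 and 113 CPM) lay within 1.5-fold, and Psmb6 was lower in mature dendritic cells (87.7 and 138 CPM). That Psmb6 value rests on few UMIs, since 132 of the 146 UMIs of its pair in these cells were Psmb9. In all, 13 of 42 measured members were at least 1.5-fold higher and 6 lower than in B cells, where 25% of 8615 genes were higher and 42.1% lower. The median log2 difference was 0.37 over the members and -0.33 over all genes. The genes that carry peptides to MHC class I were high in the same cells: 8 of 11 listed genes were at least 1.5-fold above B cells (Tap1, Tap2, Tapbp, Tapbpl, Erap1, B2m, H2-K1 and H2-D1) and 0 were lower.

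Conventional dendritic cells (14 and 14 cells) had 13 of 42 members above B cells and 4 below (23% and 34.5% of 8521 genes), with Psmb9 2.68-fold and Psme1 2.19-fold higher and Psmb10 lower. In mature dendritic cells set against them, 8 of 37 members were higher and 4 lower (24.9% and 35.9% of 3152 genes). Psmb10 was 4.66-fold higher (69.1 CPM in conventional dendritic cells) and Psme2 4.04-fold higher (492 CPM), with Psme1 2.24-fold higher (904 CPM). Psmb9 (602 CPM) and Psmb8 (874 CPM) of conventional dendritic cells were within 1.5-fold of mature dendritic cells. The epithelial gene list moved with the library in mature dendritic cells. Its 12 gastric genes summed to 10.2 CPM in the IL-27 library (11 genes at 0) and 355 CPM in the PBS library (10 at 0). Of the 24 PBS UMIs 23 were Epcam, so the value is mostly that of 1 gene. The list had 0 UMIs in IL-27 wells 1 and 2. The part of this RNA in the levels was not tested. T cell genes were at 0 in both libraries, by the gate for Cd3d, Cd3e and Cd3g but not for Trac and Trbc2. The 6 B cell genes summed to 4649 CPM with IL-27 and 22620 CPM with PBS, nearly all of it Cd74 (4597 and 22472 CPM), the class II invariant chain gene that dendritic cells express too. Cd79a and Ms4a1 were at 0 by the gate, and Igkc had 0 and 1 UMIs and Ighm 5 and 9. Ptprc, which encodes the CD45 used in the sort, stood at 71.7 and 104 CPM in mature and at 263 and 296 CPM in conventional dendritic cells (IL-27 and PBS).

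Some genes of the standard particle stood above B cells in the cycling T and B cell gates and in germinal centre B cells. Cells that met the cycling rule were gated first, so the germinal centre gate holds cells that did not meet it. Cycling T cells, with a median of 13553 UMIs per IL-27 cell, had 12 of 43 measured members at least 1.5-fold above B cells and 2 below (21.6% and 29.3% of 8513 genes). They included 9 of the 31 standard genes, such as Psma4 (152 and 67.8 CPM, 2.23-fold), the structural beta genes Psmb4 (1.77-fold) and Psmb2 (1.73-fold) and the non-ATPase gene Psmd8 (1.79-fold). Against CD4 T cells only Psmc3ip was higher among the 43 (34.0 and 6.89 CPM, 11% of 8167 genes were higher), and Psme4 and Psme2b were lower (26.5% of genes). Cycling B cells had 12 of 43 members higher and 1 lower than B cells (16.5% and 30.4% of 8260 genes), with the library gap given above. Germinal centre B cells (61 and 19 cells) had 10 of 42 higher, all of them standard genes, and 2 lower (15.2% and 22% of 8123 genes). Their highest was again Psma4 at 2.02-fold (138 CPM), and Psma6, Psma7 and Psma2 of the same ring were higher with it.

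Plasma cells, neutrophils and mast cells were the low gates, each on few cells. Plasma cells (22 and 10 cells) had 0 of 42 members higher and 12 lower than B cells (10.2% and 64.3% of 8022 genes). Psmd5 (11.9 and 43.5 CPM) and Psmd10 (7.5 and 27.7 CPM), both chaperones of the 19S base, were lowest relative to B cells. This ordering rests on CPM that include immunoglobulin UMIs, as given above. Neutrophils (29 and 24 cells) had 31 of 42 members lower and 0 higher (53.1% and 27% of 8617 genes). Of the 31, Psmd3, Psmd9, Psmd14 and Psme4 had 0 UMIs in neutrophils, and the 95% upper bound of a count of 0 in the IL-27 library, 80.8 CPM, is above their B cell levels, so a difference was not detectable at this depth. Psmb9 was among the members that were not lower, at 226 CPM in neutrophils and 224 CPM in B cells, but on only 18 UMIs in neutrophils. In mast cells 8 of 42 members were lower and 2 higher than in the PBS B cells (34.9% and 24% of 8449 genes). All 3 inducible catalytic genes were among the lower ones, with Psmb9 at 85.9 CPM, Psmb10 at 57.3 CPM and Psmb8 at 310.3 CPM, and 2 alpha ring genes, Psma4 and Psma6, were the higher ones.

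T and NK cells had few members past the limit relative to B cells, and in the CD4, CD8, regulatory and gamma-delta T cell gates Psme2 was the highest of them. CD4 T cells had 2 of 42 members at least 1.5-fold above B cells (17.9% of 8423 genes): Psme2 (490.2 and 232 CPM, 2.11-fold) and Psma4 (121 and 67.8 CPM, 1.77-fold). CD8 T cells had 1 (13.7% of 8300 genes), again Psme2 (459 CPM, 1.98-fold). Regulatory T cells had 6 of 42 (23.7% of 8593 genes), led by Psme2 at 2.58-fold, gamma-delta T cells 3 of 43 (19.2% of 8485 genes), led by Psme2 at 2.09-fold, and NK cells 6 of 42 (29.1% of 8653 genes), led by Psmb10 (227 CPM, 1.61-fold). None of these gates had a member lower, against 14.5%, 21.5%, 15.4%, 17.4% and 13.7% of all genes in the same order. These contrasts share the B cell gate, so they do not count as separate evidence on Psme2. CD8 and regulatory T cells each had 0 of 42 members past 1.5-fold from CD4 T cells in either direction (17.3% of 7955 and 17% of 8239 genes did). Plasmacytoid dendritic cells had 7 of 42 above B cells and 0 below (26.4% and 21.7% of 8587 genes), with both Psme2 (456 CPM) and Psme1 (722 CPM) among them. Type 2 innate lymphoid cells (13 and 18 cells) had 3 higher and 4 lower (26.9% and 27.7% of 8616 genes), none of them inducible or PA28 genes. In macrophages and monocytes 4 of 42 were higher and 4 lower (24.3% and 33.1% of 8589 genes). The higher ones were the core genes Psma7, Psma4, Psmb7 and Psmb5, the last 2 being constitutive catalytic genes.

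The treatment comparison asked whether IL-27 delivery went with other proteasome levels in the same cells. In B cells, CD4 and CD8 T cells, the gates with at least 200 cells in both libraries, 0 of 42 measured members differed by 1.5-fold or more between IL-27 and PBS, where 0.695% of 7765, 4.33% of 7971 and 15.3% of 7743 genes did. Counts were simulated on the CD4 gate with counting error only. In them 98% of 50 genes given a true fold of 2 passed this limit. So did 10% of 50 genes given a true change smaller than the limit, so small shifts would mostly not be seen by it.

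In B cells the summed members were 4674 CPM with IL-27 and 4668 CPM with PBS, a ratio of 1.00 (0.993-1.01). By well they were 4617, 4569 and 4798 CPM for IL-27 and 4715 and 4625 CPM for PBS, and the groups overlapped. The median log2 difference was 0.01 over the members and 0.02 over all genes. Psmb8 stood at 543, 569.9 and 569.9 CPM in the IL-27 wells and at 570.0 and 585 CPM in the PBS wells, so the groups met without overlap, at a ratio of 0.973 (0.952-0.995). Psmb9 (206, 245 and 227 against 213 and 229.6 CPM), Psmb10 (142, 144 and 139 against 146 and 132 CPM) and Psme1 (386, 402 and 428 against 433 and 404 CPM) overlapped between the groups. Psme3, the nuclear PA28 gamma, had the highest ratio, 1.13 (1.06-1.22), with 64.2, 63.7 and 57.8 CPM against 56.6 and 51.9 CPM. Next to it came Psme2b (log2 ratio 0.15) and Psmb4 (0.11), and the lowest were Psmd2 (-0.10), Psmd10 (-0.10) and Psma3 (-0.06). Of the 42 members, wells did not overlap for 1 lower (Psmb8) and 2 higher (Psme3 and Psmd11), where 7.17% of all genes were lower and 15.1% higher in this sense.

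In CD4 T cells the summed members were 5951 CPM with IL-27 and 6218 CPM with PBS, a ratio of 0.957 (0.940-0.975). The IL-27 wells at 5872, 5969 and 6029 CPM lay below the PBS wells at 6151 and 6398 CPM. Psmb8 stood at 754, 833 and 799 CPM against 869.5 and 817 CPM (ratio 0.927, 0.882-0.975) and overlapped. Psmb9 stood at 295, 318 and 285 CPM against 327 and 329 CPM (0.912, 0.841-0.990) and did not overlap. Psme1 (535, 523 and 550.2 against 597 and 546 CPM) and Psme2 (486, 493 and 468 against 490.1 and 519 CPM) overlapped. Of the 42 members, 3 were higher without overlap (Psmc3, Psmd7 and Psmd12) and 3 lower (Psma3, Psma4 and Psmb9), beside 10.8% of all genes in each direction. The highest log2 ratios were 0.18 for Psmd7 and Psme3 and 0.17 for Psmc3, and the lowest -0.39 for Psme4, -0.36 for Psme2b and -0.19 for Psmb4. Psme4 stood at 13.8 and 18.3 CPM (ratio 0.751, 0.525-1.09), where the 30.1 CPM of PBS well 2 stood apart from 11.4 to 15.9 CPM in the other wells. Other RNA moved with the same well. The 6 B cell genes summed to 167 to 273 CPM in the IL-27 wells, 178 CPM in PBS well 1 and 2315 CPM in PBS well 2, where Cd74 made up 2207 CPM. The effector genes Ccl5 (3445 CPM against 52.5 to 620 CPM in the other wells) and Nkg7 (1357 against 78.9 to 179 CPM), both chosen after their values were seen, were high there, and ribosomal protein genes took 22.4% of UMIs against 27.6% to 28.4%. Their part in the CD4 difference was not tested.

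In CD8 T cells the summed members were 5095 CPM with IL-27 and 5688 CPM with PBS, a ratio of 0.896 (0.880-0.912). By well they were 4773, 5398 and 5374 CPM against 5282 and 6339 CPM, so the groups overlapped and PBS well 2 was apart. The median log2 difference was -0.15 over the members and -0.16 over all genes, so members and other genes were shifted alike. Psmb8 stood at 616, 772 and 722 CPM with IL-27 and at 681 and 969 CPM with PBS (ratio 0.864, 0.823-0.908). Psmb9 stood at 207, 287 and 259 CPM and at 232 and 400.0 CPM (0.815, 0.752-0.884). In both genes only PBS well 2 was above the IL-27 wells. Psmb10 (145, 198 and 164 against 158 and 169 CPM), Psme1 (542, 641 and 637 against 653 and 525 CPM) and Psme2 (420.0, 476 and 460.2 against 479 and 462 CPM) showed no such gap. The non-ATPase gene Psmd1 had the lowest ratio, 0.672 (0.558-0.812), at 40.0, 51.5 and 32.2 CPM against 53.1 and 72.9 CPM. It was 1 of 6 members whose IL-27 wells all lay below PBS, with Psma1, Psma3, Psmb5, Psmc1 and Psmc5 (16.3% of all genes), and 0 lay above (7.76%). Next lowest were Psma1 (63.9, 58.2 and 69.5 against 70.0 and 118 CPM, ratio 0.724) and the ATPase gene Psmc3 (70.4, 73.8 and 82.9 against 81.1 and 122 CPM, 0.770). The highest log2 ratios were 0.23 for Psmd9, 0.21 for Psme2b and 0.04 for Psmd3.

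PBS well 2 differed from the other wells in its CD8 cells beyond the proteasome. Ccl5, a chemokine of effector T cells chosen after its values were seen, stood at 31516 CPM there and between 983 and 2250 CPM in the other wells, and ribosomal protein genes took 18.1% of UMIs against 36.5% to 38.9%. The 12 epithelial genes summed to 107 CPM there against 2.92 to 22.7 CPM, and the 6 B cell genes to 573 CPM, of which Cd74 was 509 CPM, against 196 to 242 CPM. The part of these RNAs in the CD8 difference was not tested. Compared with PBS well 1 alone, the IL-27 CD8 cells had a summed ratio of 0.965 (0.943-0.987) with 0 of 42 members past 1.5-fold (4.95% of 7334 genes). Compared with PBS well 2 alone the ratio was 0.804 (0.783-0.825), with 9 members lower, among them Psmb9, Psma1 and Psmd1, and 1 higher, Psme2b (39.5% and 9.77% of 8241 genes). With CPM taken without immunoglobulin, T cell receptor, ribosomal protein, mitochondrial and haemoglobin genes, the summed CD8 ratio of the 2 libraries was 1.01, so the direction of the CD8 sum turned with the scaling.

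**Figure D3:**
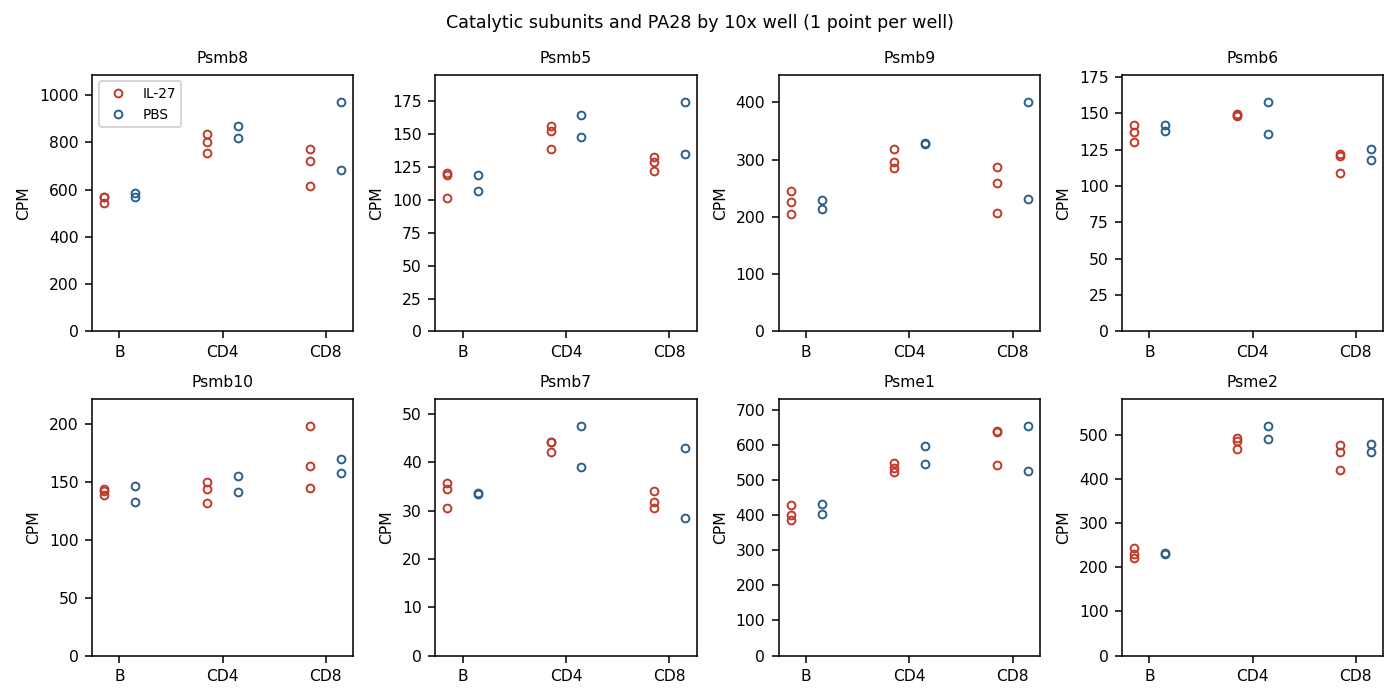
CPM (vertical) of the catalytic genes and PA28 in B, CD4 and CD8 gates, 1 point per well (3 IL-27, 2 PBS). The groups overlap in most panels, and PBS well 2 is the high CD8 point for Psmb8 (969 CPM), Psmb9 (400.0 CPM) and Psmb5 (174 CPM).

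The catalytic shares of the libraries lay close together in B and CD4 cells and less so in some smaller gates. In B cells the Psmb8 share was 83.2% with IL-27 and 83.8% with PBS, the Psmb9 share 62.4% and 61.4%, and the Psmb10 share 80.7% and 80.5%. In CD4 T cells the Psmb8 share was 84.3% and 84.9% and the Psmb9 share 66.7% and 68.4%. In CD8 T cells the Psmb9 share was 67.6% (66.0-69.3%) and 71.1% (68.4-73.7%). By well it was 65.5%, 70.4% and 67.9% with IL-27 and 66.3% and 76.2% with PBS, so PBS well 1 lay among the IL-27 wells. In plasmacytoid dendritic cells the Psmb9 share was 70.4% (63.3-76.9%) with IL-27 and 57.8% (51.7-63.7%) with PBS. By well it was 68.8%, 71.8% and 71.6% against 41.7% and 59.4%, without overlap, and PBS well 1 held 9 of these cells. The other pairs did not separate by well in this gate. The Psmb8 share was 85.0% with IL-27 and 82.4% with PBS, and the Psmb10 share was lower with IL-27 (76.9% and 83.9%). In type 2 innate lymphoid cells the Psmb9 share was 73.9% (51.6-89.8%, 23 UMIs) and 41.2% (18.4-67.1%, 17 UMIs), and these intervals overlap.

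**Figure D4:**
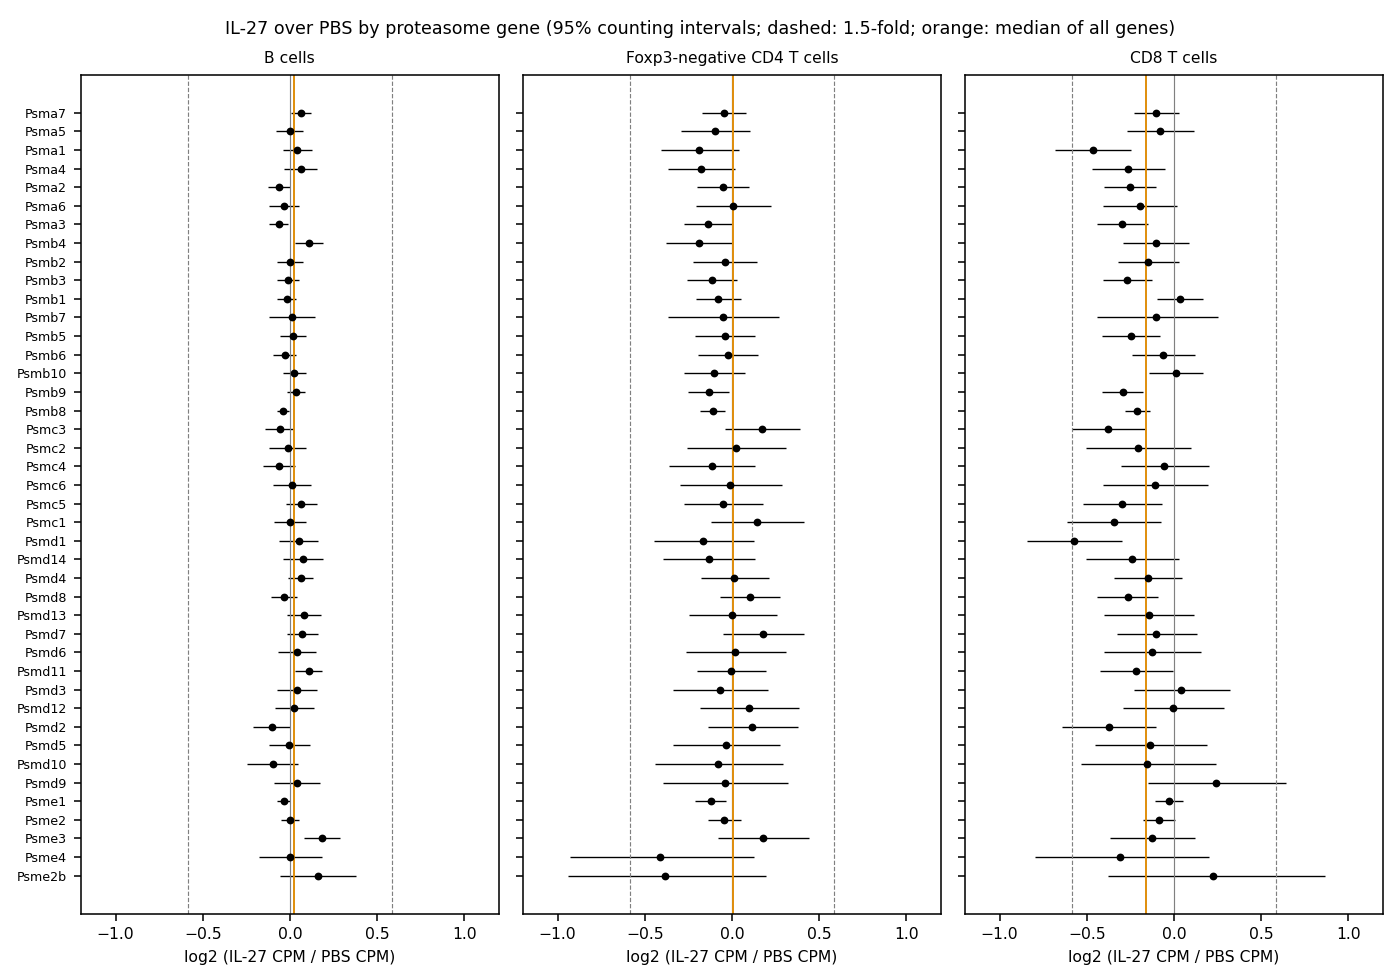
Log2 ratio of CPM, IL-27 over PBS (horizontal), for each measured member in the B, CD4 and CD8 gates with 95% counting intervals; dashed lines mark 1.5-fold and the orange line the median of all genes. No point passes a dashed line, and in CD8 the members centre on the shifted median of all genes (-0.15 and -0.16).

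Few genes around the proteasome differed between the libraries. In B and in CD4 T cells, 0 of the measured genes passed 1.5-fold among 6 core assembly factors, 7 partners of the particle, 11 genes of ubiquitin supply, 5 genes of the Nfe2l1 axis (the factor that drives proteasome genes when the protease fails) and 11 genes of MHC class I peptide supply. In CD8 T cells Nfe2l1, Tap1, Pdia3 and the interferon regulatory factor gene Irf8 were lower with IL-27, and the interferon gamma receptor gene Ifngr2 was higher. Tap1 stood at 68.0, 99.8 and 77.0 CPM in the IL-27 wells and at 77.0 and 201 CPM in the PBS wells, so only PBS well 2 was above. In B cells haemoglobin genes were higher with IL-27 (314 and 2.53 CPM summed), nearly all from IL-27 well 3 (783 CPM), where the summed members were 4798 CPM, the highest of the 5 wells. The part of that RNA was not tested.

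In the smaller gates the summed ratio of IL-27 to PBS was 0.971 (0.947-0.997) in cycling T cells, 0.865 (0.822-0.910) in plasmacytoid dendritic cells, 1.02 (0.960-1.09) in macrophages and monocytes, 0.929 (0.886-0.974) in NK cells, 0.948 (0.907-0.991) in gamma-delta T cells and 0.964 (0.922-1.01) in regulatory T cells. Wells overlapped between the groups in these gates except regulatory T cells. There the highest IL-27 well (6463 CPM) lay just below the lower PBS well (6464 CPM). The median log2 difference over all genes lay between -0.02 and 0.04. Over the members it was lowest in plasmacytoid dendritic cells (-0.23). Plasmacytoid dendritic cells also had the lowest ratio, with wells at 5062, 6267 and 6814 CPM against 6327 and 6864 CPM. There Psme1 was 639.7 CPM with IL-27 and 804 CPM with PBS, and 63 of the 72 PBS cells came from well 2. In gamma-delta T cells erythroid genes summed to 678 CPM with IL-27, 2595 CPM in its well 2, and to 3.96 CPM with PBS. In regulatory T cells the epithelial genes summed to 40.5 CPM with IL-27 and 309 CPM with PBS (60.4 and 552 CPM by well), led by Tff1, and the B cell genes to 562 and 1596 CPM, led by Cd74 (307 and 1272 CPM). In cycling T cells the B cell genes summed to 233 and 770.5 CPM. The part of these RNAs in the ratios was not tested.

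Within a gate, cells with interferon-stimulated transcripts were compared with cells without them, in the same wells. Cells with at least 3 UMIs of 7 such markers (Ifit1, Ifit3, Ifit3b, Rsad2, Usp18, Ifi44 and Oasl1) were set against cells with 0. In B cells they were 80 of the IL-27 cells (0.737%) and 140 of the PBS cells (1.83%). By well they were 0.530%, 0.694% and 0.942% with IL-27 and 2.06% and 1.57% with PBS, so the groups did not overlap in B cells. Other gates differed in direction. The median log2 ratio of IL-27 over PBS over the measured markers was -0.71 in B cells and -0.03 in CD4. It was 0.13 in regulatory T cells, 0.39 in CD8 and 0.74 in macrophages and monocytes. In plasmacytoid dendritic cells it was 1.04, in NK cells 1.91 and in gamma-delta T cells 2.15, each on few markers. The B cells with at least 3 marker UMIs had a median depth of 3108 and 2998 UMIs, against 2786 and 2761 UMIs in cells with 0.

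PA28 was the highest of the proteasome groups in these cells. Psme2 stood at 443, 460 and 485 CPM in the marked B cells of the IL-27 wells and at 403 and 419 CPM in those of the PBS wells, against 217 to 239 CPM in B cells with 0 marker UMIs. The groups of cells did not overlap, and the fold on the library means was 1.97. Psme1 stood at 544, 669.7 and 649 CPM and at 783 and 612 CPM, against 381 to 415 CPM (1.67-fold). Psmb8 stood at 604, 799.7 and 717 CPM and at 889 and 741 CPM, against 537 to 578 CPM, 1.37-fold and below the 1.5-fold limit though above in every well. Psmb9 was 1.49-fold higher and above in all 5 wells, and Psmb10 1.52-fold higher and above in 4 of 5.

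Of the constitutive counterparts, Psmb5 was 1.03-fold and Psmb6 0.998-fold. The median log2 difference was 0.04 over the 3 constitutive catalytic genes, Psmb7 among them, and 0.57 over the 3 inducible ones. In all, 4 of 43 members were at least 1.5-fold higher (Psme2, Psme1, Psmb10 and Psme2b, which may share Psme2 reads) and 0 lower, where 8.72% of 8053 genes were higher and 8.15% lower. None of the 31 standard genes passed. The median log2 difference was 0.24 over the members, 0.16 over the standard genes and -0.03 over all genes. In 9 of 43 members the marked cells were above in each of the 5 wells (4.79% of all genes): Psmb8, Psmb9, Psme1, Psme2, Psme2b, Psma2, Psma5, Psmb2 and Psmd10. The MHC class I transactivator gene Nlrc5 was 3.14-fold and the transporter gene Tap1 2.18-fold higher.

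**Figure D5:**
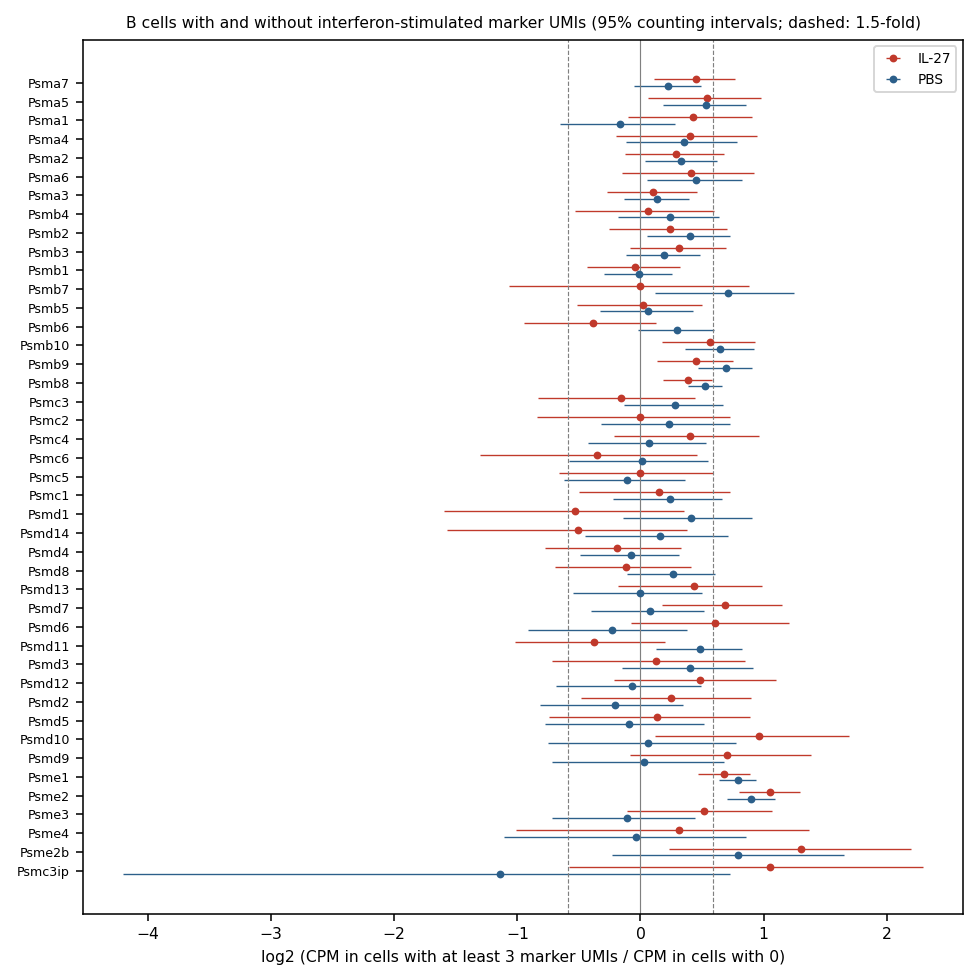
Log2 ratio of CPM (horizontal) in B cells with at least 3 interferon-stimulated marker UMIs over B cells with 0, for each measured member in the IL-27 and PBS libraries, with 95% counting intervals; dashed lines mark 1.5-fold. Psme1 and Psme2 lie right of the line in both libraries, and Psmb5 near 0.

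In CD4 T cells the marked cells were 25 with IL-27 (1.35%) and 11 with PBS (1.86%). By well they were 0.856%, 2.79% and 0.521% with IL-27 and 2.30% and 0.637% with PBS, so the groups overlapped. The median depth of the marked CD4 cells was 3755 UMIs with IL-27 and 6094 UMIs with PBS, against 3729 and 3696.5 UMIs in cells with 0. By IL-27 well it was 6540.5, 3089 and 7996 UMIs. The part of depth in the following values was not tested. Psmb10 was 1.94-fold and Psme1 1.54-fold higher, with Psme2b 1.85-fold on 5 UMIs, so 3 of 42 members were higher and 4 lower (15.3% and 24.1% of 8275 genes). Psme2 was 1.29-fold, Psmb8 1.28-fold and Psmb9 1.23-fold. The median log2 difference was 0.21 over the 3 constitutive catalytic genes, 0.36 over the 3 inducible ones and -0.11 over all genes. Only Psmb8 and Psmd5 were above in each of the 5 wells (0.894% of all genes), and PBS well 2 held 1 marked CD4 cell.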

How the data were processed

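Single-cell transcriptomes of 2 libraries, 1 per group, were analysed. The authors deposited UMI counts per gene and barcode, made with Cell Ranger 3.0.0 on mm10, per the submitters' processing notes; per the file headers, the matrices came from software version 3.1.0. The counts are not normalized, and replicate animals were pooled within a library.

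Cells were assigned to 17 exclusive gates by raw UMIs of fixed markers, with 0 UMIs of excluding lineages, which removes many doublets; no doublet caller was used in the main results. Counts were summed per gate, library and well and scaled to 1000000 summed UMIs (CPM). A library entered a gate's mean from 20000 UMIs, a limit set after the data were seen. Folds used CPM plus 1; a difference was counted from 1.5-fold. With 1 library per group no p-value was computed. Count ratios carry exact conditional 95% intervals and shares exact Clopper-Pearson intervals. UMIs remove PCR copies, and intervals cover neither animals nor capture. The steps were tested on simulated data for the CD4 gate, where 1.40% of 7692 unchanged genes passed 1.5-fold and intervals held the true ratio for 94% to 96% of changed genes. The simulated counts held counting error only, so this coverage follows from how they were drawn. It says nothing about spread between animals, wells or cells. The total per library is given in the report, and a member at 50 CPM in the PBS CD4 gate rests on little more than 100 UMIs.

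The members and gene lists were chosen with earlier results of these data known. Every member could be named; well values were given for the catalytic and PA28 genes and at the 3 highest and 3 lowest log2 ratios of a treatment contrast, and across gates the 5 members with the largest and the 5 with the smallest ratio of highest to lowest gate were named. Alternatives were cells without doublet scores of 0.25 or more, other gate limits, CPM over other genes, equal cell weights, thinning to 1000 UMIs, a lower fold limit and each well left out. Python 3.11.15, numpy 2.4.6, scipy 1.17.1, pandas 2.3.3, scanpy 1.11.5 and matplotlib 3.10.9 were used.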

Additional observations from a re-analysis of the deposited data

How the results depend on the processing

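No paired analysis was possible because each group is 1 library. Over the alternatives, 272 values moved by less than their counting interval (or by at most 1.5 times for counts) and 51 moved further. In 1 the direction turned: the CD8 sum of IL-27 over PBS, 0.896 in the main analysis, was 1.01 with CPM over other genes. The IL-27 over PBS sums: in CD4, 0.937 with up to 1 excluding UMI allowed and 0.925 with cells thinned to 1000 UMIs (848 IL-27 and 363 PBS cells were too shallow); in CD8, 0.953 with CPM over other genes and PBS well 2 left out, where B gave 0.980 (an alternative chosen after seeing the data). Members past the limit: thinned, 1 in CD4 and 3 in CD8; at a fold limit midway between 1 and 1.5, 2 in CD4, 5 in CD8 and 14 in marked B cells. Shares here are means of the libraries, while the report pools them (Psmb10 in mature dendritic cells is 88.7% as a mean and 86.2% pooled). Equal cell weights gave Psmb8 shares of 85.2% in CD4 and Psmb9 shares of 68.8% in CD4 and 71.0% in CD8. Thinning gave Psmb9 61.3% and Psmb10 81.9% in B, Psmb8 85.2% and Psmb10 82.0% in CD4, Psmb9 71.6% and Psmb10 85.9% in CD8, and Psmb8 87.3% and Psmb10 100% in mature dendritic cells, with their PA28 at 0.378% and the Psme1 ratio of marked B cells at 1.87. PA28 there was 0.500% over other genes. The PBS library alone gave Psmb9 71.1% in CD8, and Psmb10 94.4% and PA28 0.372% in mature dendritic cells. The cause of these moves was not tested, apart from the smaller counts that thinning leaves.

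With each well left out in turn, members past the limit were 0 to 0 in B, 0 to 2 in CD4 (Psme4 and Psme2b without PBS well 1) and 0 to 10 in CD8 (10 without PBS well 1). The sums were 0.984 to 1.01, 0.930 to 0.967 and 0.804 to 0.965. Psmb8 shares were 83.0% to 83.9% in B, 83.8% to 84.9% in CD4, 84.0% to 84.6% in CD8 and 86.1% to 93.4% in mature dendritic cells. Psmb9 shares were 61.1% to 62.4%, 67.1% to 68.8%, 67.0% to 71.9% and 88.7% to 96.4% in the same order, and Psmb10 shares 80.2% to 81.0%, 76.3% to 77.3%, 81.7% to 84.2% and 86.4% to 92.9%. PA28 in mature dendritic cells was 0.391% to 0.414%. In marked B cells 3 to 7 members passed (7 without IL-27 well 3), and the ratios were 1.29 to 1.46 for Psmb8, 1.58 to 1.76 for Psme1 and 1.93 to 2.01 for Psme2. In gates of under 100 cells the counting intervals limit all but the largest differences.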
